A study of Homo sapiens with 6 samples.

Results

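Cytosine methylation at CpG sites is copied after replication, set anew and removed by separate enzymes, and the RNAs of 10 genes of this machinery were followed here in HEK293 cells with and without the mitochondrial ubiquitin ligase MUL1. The genes were chosen by name: the methyltransferases DNMT1, DNMT3A and DNMT3B with their partner DNMT3L, the oxidases TET1, TET2 and TET3, the hemimethylated-DNA binding proteins UHRF1 and UHRF2, and the methyl-CpG reader MBD2. They are 10 of 57123 genes in the count tables, and 9 of them had enough counts to be tested. HEK293 is an established human embryonic kidney line. The 6 RNA-seq libraries comprised 3 from wild-type (WT) cells and 3 from cells labelled MUL1(−/−), in which the gene was inactivated by CRISPR-Cas9. Both were grown in the same supplemented DMEM with no further treatment. The study blotted a pair of independent MUL1(−/−) clones, and the sources used here do not say which clone, or how many, gave the RNA, so genotype and clone cannot be told apart. Nothing in the labels says that the 3 libraries of a genotype came from separate cultures, so the p-values below measure the spread between these libraries, which may be technical.

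As background, DNMT1 restores methylation on the new strand behind the replication fork, and UHRF1 brings it to hemimethylated sites. DNMT3A and DNMT3B methylate sites that carried no mark, and DNMT3L, a germ-cell and stem-cell protein without catalytic activity of its own, stimulates them. The TET enzymes oxidise 5-methylcytosine, after which the base is diluted by replication or cut out by thymine DNA glycosylase and base excision repair. Methylation itself was not measured in these libraries.

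The deposited counts summed to 127466071 to 149317215 per library over all exon bins. MUL1 mRNA did not tell the genotypes apart: its level was 15.4, 15.2 and 19.01 CPM in WT and 18.7, 16.6 and 19.2 in the libraries labelled MUL1(−/−), a log2 fold change of 0.14 ± 0.10 (SE), with an adjusted p of 0.321 (edgeR quasi-likelihood test), so it does not check the labels, and the groups are named by their labels throughout. HEK293 markers (VIM, KRT8, KRT18 and others, 8 genes) summed to 1370 to 1588 CPM in WT and 1006 to 1187 in MUL1(−/−), and 10 markers of blood, liver, vessel, mature kidney and other cells to 17.1 to 25.8 CPM over all libraries. Of the HEK293 markers 2 were called higher and 3 lower, among them NEFM, a neurofilament subunit (1.06), and PAX2, a kidney developmental factor (-1.80). That is 62.5% of the 8, against 37.5% of all genes tested. The 20 nearest tested genes on the same chromosome had a median log2 fold change of 0.48 around NEFM and -0.76 around PAX2. Of the 7 tested markers of other cells 2 were called higher and 1 lower (42.9%). PTPRC (leukocytes, 1.94) and PECAM1 (endothelium, 2.06) were under 0.5 CPM in every library, while CD3E and INS had at most 3 counts in any. COL1A1 (fibroblasts), which supplied most of that list's sum, had the lowest value, -0.39, with 21.9 ± 2.53 CPM in WT and 16.8 ± 1.91 CPM in MUL1(−/−). The part of these markers in the members' values was not tested, and in bulk RNA fewer cells that express a gene and less RNA per cell cannot be told apart. Here CPM is the count summed over a gene's exon bins, scaled to a common library size with TMM factors. Log2 fold changes are MUL1(−/−) against WT.

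Of the 9 tested genes, 4 differed at an adjusted p under 0.05: DNMT1 and UHRF1, the pair that maintains methylation, were higher in MUL1(−/−), and DNMT3B and TET1 were lower. Over all 25125 genes tested, 37.5% passed the same threshold (18.8% higher, 18.7% lower), so 4 of 9 is near the background, and a difference in a member is what a large share of all genes showed. With edgeR, DESeq2 or limma-voom, none of the 9 also passed an absolute log2 fold change above 1. That fold with an adjusted p under 0.05 is what 8.11% of all genes showed (4.23% higher, 3.87% lower). The median log2 fold change of the 9 was 0.06, against -0.01 over all genes tested. In 5 of the 9 the values of the genotypes did not overlap, and the same held for 48.5% of all genes.

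**Figure D1:**
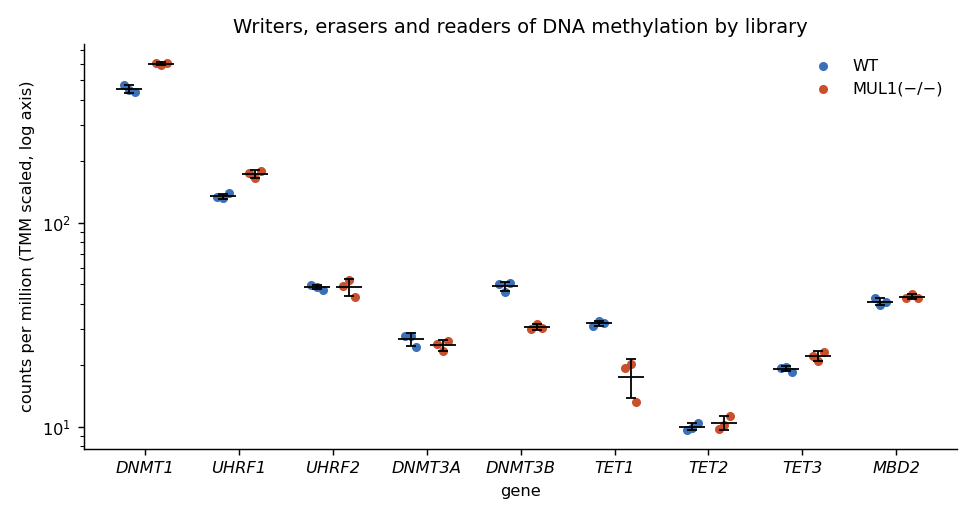
Levels of the 9 tested genes in each library, in CPM on a log axis, with WT in blue and MUL1(−/−) in red; bars are the mean and SD of 3 libraries. DNMT1 and UHRF1 sit higher and DNMT3B and TET1 lower in MUL1(−/−), and the third MUL1(−/−) library of TET1 lies apart at 13.2 CPM.

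DNMT1, the maintenance methyltransferase (GRCh38, chr19:10133345-10231286, minus strand), was the most abundant of the genes. Its level was 476, 448 and 439 CPM in WT and 609, 594 and 608 CPM in MUL1(−/−). All 3 MUL1(−/−) libraries lay above all WT libraries, and the means, 454 ± 19.3 and 603 ± 8.37 CPM (SD, n = 3), differed by 32.9%. The log2 fold change was 0.41 ± 0.06 (SE), with an adjusted p of 0.000105 (edgeR quasi-likelihood test).

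UHRF1, which reads hemimethylated CpG and recruits DNMT1 (chr19:4903080-4962154, plus strand), moved the same way. It stood at 134, 132 and 139 CPM in WT and at 176, 166 and 180 CPM in MUL1(−/−), again without overlap. Its log2 fold change was 0.36 ± 0.07 (SE), with an adjusted p of 0.000441 (edgeR quasi-likelihood test), or 28.7% on the means. UHRF2, its paralog, gave 49.2, 48.4 and 47.0 CPM in WT and 49.0, 52.2 and 43.2 CPM in MUL1(−/−). The UHRF2 groups overlapped, and the 95% interval of its log2 fold change ran from -0.17 to 0.17.

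DNMT3B, a de novo methyltransferase (chr20:32762385-32809356, plus strand), was lower in MUL1(−/−). WT libraries held 49.9, 45.9 and 50.7 CPM and MUL1(−/−) libraries 29.95, 31.8 and 30.3 CPM. The groups were far apart relative to their spread, with means of 48.9 ± 2.58 and 30.7 ± 0.983 CPM (SD, n = 3). The mean fell by 37.2%, a log2 fold change of -0.67 ± 0.07 (SE), with an adjusted p of 5.43e-06 (edgeR quasi-likelihood test).

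DNMT3A, the other de novo enzyme, did not pass the test. Its values, 27.8, 27.9 and 24.6 CPM in WT and 25.5, 23.4 and 26.3 CPM in MUL1(−/−), overlapped, and the 95% interval of the log2 fold change was -0.27 to 0.08. The difference between DNMT3A and DNMT3B was not tested. DNMT3L gave 1, 1 and 0 counts in WT and 1, 2 and 1 in MUL1(−/−). All 6 values lie under a floor of 3 counts, so no level or fold is given for it.

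TET1 (chr10:68560656-68694482, plus strand) had the largest fold among the 9 tested members. It was measured at 31.1, 33.0 and 32.2 CPM in WT and at 19.4, 20.2 and 13.2 CPM in MUL1(−/−). The third MUL1(−/−) library was the lowest and widened the SD to 3.84 CPM around a mean of 17.6, against 32.1 ± 0.919 in WT (SD, n = 3). The log2 fold change was -0.87 ± 0.12 (SE), with an adjusted p of 6.25e-05 (edgeR quasi-likelihood test), and without that library it was -0.70 (adjusted p = 4.07e-06).

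TET3, an oxidase with its own CXXC domain like TET1, stood at 19.4, 19.7 and 18.6 CPM in WT and 22.3, 20.9 and 23.3 CPM in MUL1(−/−). The groups did not overlap, yet the log2 fold change of 0.20 ± 0.08 (SE) missed the threshold (adjusted p = 0.0597, edgeR quasi-likelihood test), which it passed with library totals in place of TMM factors (adjusted p = 0.0127). TET2, which lacks the CXXC domain, was the least abundant oxidase, with 9.62, 9.89 and 10.4 CPM in WT and 9.71, 10.2 and 11.3 CPM in MUL1(−/−). These overlapped, and the 95% interval of the log2 fold change was -0.14 to 0.27.

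MBD2, which binds methylated CpG and brings the NuRD complex to it, gave 42.6, 39.5 and 40.7 CPM in WT and 42.7, 44.7 and 42.5 CPM in MUL1(−/−). The lowest MUL1(−/−) value was just under the highest WT value, and the 95% interval of the log2 fold change was -0.07 to 0.23.

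Compared per kilobase of exon bins, the WT order of levels was DNMT1 (46.8 ± 1.99 CPM per kb, SD, n = 3), UHRF1 (26.2 ± 0.75), DNMT3B (10.6 ± 0.56), MBD2 (7.05 ± 0.27), UHRF2 (4.86 ± 0.11), TET1 (3.46 ± 0.10), DNMT3A (2.23 ± 0.16), TET3 (1.57 ± 0.05), TET2 (0.605 ± 0.024) and then DNMT3L. Each neighbouring pair in this order was separated by more than their SDs. In MUL1(−/−), DNMT3B (6.63 ± 0.21 CPM per kb) came below MBD2 (7.46 ± 0.21), while TET1 (1.89 ± 0.41) came between DNMT3A (2.09 ± 0.13) and TET3 (1.80 ± 0.10) and did not differ from either beyond the spread. A read is counted in every bin it touches, so a gene cut into many bins is overstated, as with the 102 bins of DNMT1. Per kilobase of each gene's most counted bin, DNMT1 (324 CPM per kb in WT), UHRF1 (61.8) and DNMT3B (31.4) still led and TET2 (3.94) was still lowest before DNMT3L, but UHRF2 (26.6) and TET1 (16.6) came above MBD2 (10.9), TET3 (8.66) above DNMT3A (5.72), and DNMT3B in MUL1(−/−) (18.8) stayed above MBD2 (11.4).

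The genes around the 4 called members on their chromosomes differed, by their median, in the same direction as the member. Over all genes, the same was true of 6897 of 9385 called ones. The 20 nearest tested genes around DNMT1 had a median log2 fold change of 0.50, with 16 of 20 called and 12 of these higher. Around UHRF1, also on chromosome 19, the median was 0.57, with 14 of 20 called and 13 of these higher. Around DNMT3B on chromosome 20 the median was -0.52, with 12 of 20 called and 0 of these higher. Around TET1 on chromosome 10 it was -0.49, with 10 of 20 called and 1 of these higher. Around the 5 members that were not called, the medians lay between -0.13 (TET2) and 0.08 (DNMT3A).

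**Figure D2:**
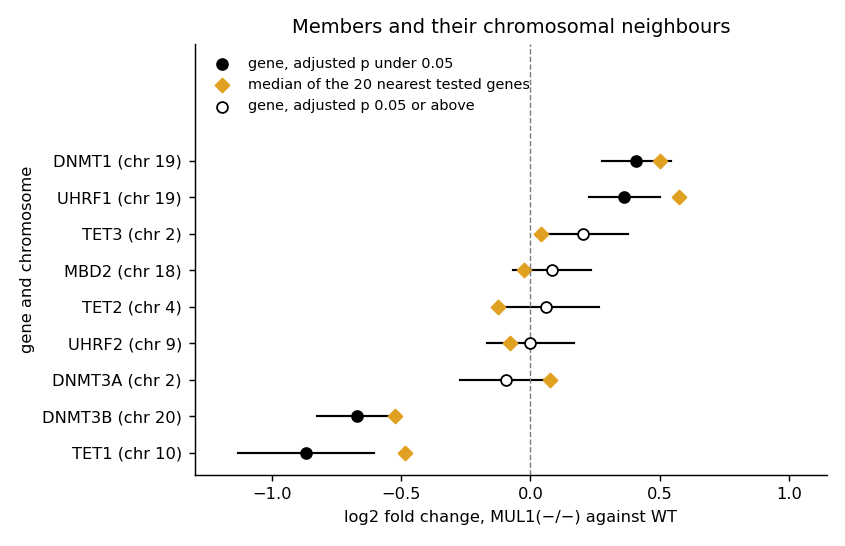
Log2 fold change of each tested member (circles, filled where the adjusted p was under 0.05, with 95% intervals) beside the median log2 fold change of its 20 nearest tested genes on the same chromosome (diamonds). The 4 filled circles have their diamonds on the same side of 0, at 0.50, 0.57, -0.52 and -0.49.

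Whole chromosomes showed the same sides: the median over the 1771 tested genes of chromosome 19 was 0.31 with 43.0% called higher, over the 635 of chromosome 20 it was -0.35 with 46.3% called lower, and over the 999 of chromosome 10 it was -0.29 with 40.6% called lower. Library by library, each member's log2 level was set against the median of its neighbours, both relative to their WT means. DNMT1 then differed between genotypes by -0.04 (exact permutation test, two-sided, p = 0.3) and DNMT3B by -0.08 (exact permutation p = 0.7), both with overlapping groups. UHRF1 lay 0.22 below its neighbours' shift in MUL1(−/−) (-0.22 ± 0.03, SD, n = 3, against 0.00 ± 0.06 in WT; exact permutation p = 0.1, the smallest that 3 against 3 allow). TET1 lay -0.21, -0.20 and -0.94 from its neighbours in the 3 MUL1(−/−) libraries and -0.04, 0.07 and 0.03 in WT, a difference of -0.47 (exact permutation p = 0.1) set largely by the third MUL1(−/−) library. Of the members that were not called, DNMT3A (-0.18), TET3 (0.17) and UHRF2 (0.12) also differed from their neighbours without overlap (exact permutation p = 0.1 for each), and TET2 (0.19; p = 0.3) and MBD2 (0.11; p = 0.2) with overlap, by the same exact test. Among the 4 called members the median absolute log2 fold change was 0.54, and 0.18 once the neighbours' median was taken off. Over 9385 called genes the same step took it from 0.56 to 0.39. Chromosome copies were not counted in these files, and their part in the members' differences was not tested.

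Because the files hold exon bins, the evenness of each change along a gene could be followed. In DNMT3B all 28 tested bins were lower in MUL1(−/−), with log2 fold changes from -0.88 to -0.24. All 12 bins of TET1 were lower, from -0.99 to -0.42. DNMT1 was higher in 89 of 94 bins and UHRF1 in 25 of 27. A bin-level test against the rest of the gene (edgeR diffSpliceDGE) called 1.48% of 313115 bins over all genes, and 14.1% of 16222 genes had at least 1 called bin. Among the members it called 2 bins, both in TET2, and no bin of the 4 genes that differed.

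DNMT3B is made in forms that differ by 3 cassette exons, and the counts along the gene showed which were in use. In the principal GENCODE 29 transcript, DNMT3B-202, exon 10 has 60 bases, exon 21 has 70 and exon 22 has 119. Exon 10 is present in 1 of the 6 annotated transcripts, and exons 21 and 22 are present together in 3 of 6. Exon 10 holds 20 codons, and exons 21 and 22 together 63, so leaving them out keeps the reading frame. Forms without exons 21 and 22 lack part of the catalytic domain and are known as inactive. The exons (GRCh38, chromosome 20, plus strand) are shown because their counts set them apart from every other coding exon of the gene. Capitals mark the exon, and lower case marks 15 bases of the neighbouring exon on each side as spliced.
exon 10, chr20:32793536-32793595: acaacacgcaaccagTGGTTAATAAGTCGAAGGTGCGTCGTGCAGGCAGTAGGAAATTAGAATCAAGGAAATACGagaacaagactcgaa
exon 21, chr20:32805338-32805407: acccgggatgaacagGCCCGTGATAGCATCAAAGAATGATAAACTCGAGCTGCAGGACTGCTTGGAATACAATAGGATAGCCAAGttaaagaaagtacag
exon 22, chr20:32806209-32806327: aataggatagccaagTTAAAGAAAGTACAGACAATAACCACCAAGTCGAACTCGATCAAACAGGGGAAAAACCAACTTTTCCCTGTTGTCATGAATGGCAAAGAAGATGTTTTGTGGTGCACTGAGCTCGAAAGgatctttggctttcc
The form without exons 21 and 22 joins exon 20 (lower case) straight to exon 23 (capitals), over chr20:32802456-32807776.
join: acccgggatgaacagGATCTTTGGCTTTCC

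Exon 10 held 18, 16 and 25 counts in WT and 11, 13 and 19 in MUL1(−/−). Against the mean count of the exons on either side this was 8.37%, 7.02% and 11.8% in WT and 10.3%, 9.89% and 15.02% in MUL1(−/−), with overlapping groups (exact permutation p = 0.3). Exon 21 held 34, 28 and 37 counts in WT, where exon 20 held 277, 274 and 261. Against the mean of exons 20 and 23 it stood at 9.61 ± 1.51% in WT and 12.5 ± 4.58% in MUL1(−/−) (SD, n = 3; exact permutation p = 0.4). Exon 22 stood at 12.3 ± 2.79% and 12.6 ± 2.59% (exact permutation p = 0.8). These shares are not corrected for length. For comparison with other short exons, exon 12, with 45 bases and present in all 6 transcripts, stood at 75.02 ± 4.36% of its flanks in WT and 71.5 ± 3.86% in MUL1(−/−), and exon 16, with 85 bases, at 66.4 ± 6.03% and 62.4 ± 7.37%. In both genotypes the cassette exons were far below these, and a difference in their share between the genotypes was not detectable at this depth.

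**Figure D3:**
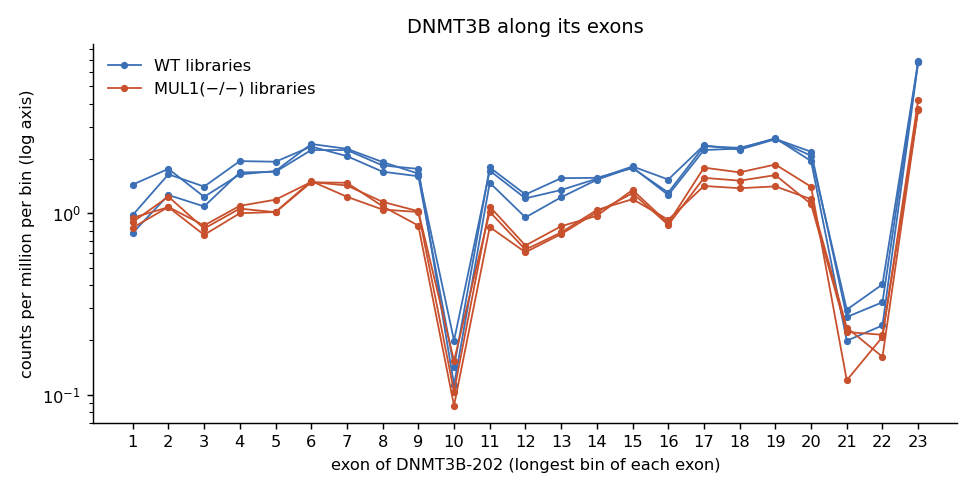
CPM in the longest bin of each exon of DNMT3B-202, on a log axis, 1 line per library (WT blue, MUL1(−/−) red). Exons 10, 21 and 22 drop in all 6 libraries, and the red lines run below the blue ones along exons 4 to 9 and 11 to 20 and at exon 23.

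In DNMT3A, the long and short forms start from separate promoters. The first exon of the short transcript DNMT3A-203 (GRCh38, chromosome 2, 25252194 to 25252311) held 1, 3 and 1 counts in WT and 0, 0 and 0 in MUL1(−/−), at or under the floor of 3 counts. Exon 6 of the long principal transcript, upstream of that start, held 74, 76 and 58 counts in WT and 61, 73 and 53 in MUL1(−/−).

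The 2 called bins of TET2 lie outside the exons of its principal transcript, TET2-203. The first (GRCh38, chr4:105237352-105241338) falls in the long last exon of the short transcript TET2-202 and in an intron of TET2-203. It held 58, 64 and 32 counts in WT and 25, 28 and 21 in MUL1(−/−), without overlap. Relative to the rest of TET2 its log2 fold change was -1.04 (adjusted p = 0.00795, edgeR diffSpliceDGE). The second (chr4:105241430-105242762), in the same terminal region and present in 2 of 9 transcripts, held 23, 35 and 18 counts in WT and 12, 11 and 7 in MUL1(−/−), with a relative log2 fold change of -1.32 (adjusted p = 0.0238, edgeR diffSpliceDGE). Next by p was the larger bin of exon 2 (chr4:105190360-105190486), with 13, 31 and 11 counts in WT and 21, 37 and 33 in MUL1(−/−), which was not called (adjusted p = 0.366). The last exon of TET2-203, which ends the full-length message, held 451 to 547 counts in WT and 523 to 580 in MUL1(−/−). The counts are small: without WT replicate 1, WT replicate 2 or MUL1(−/−) replicate 3, neither bin was called.

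**Figure D4:**
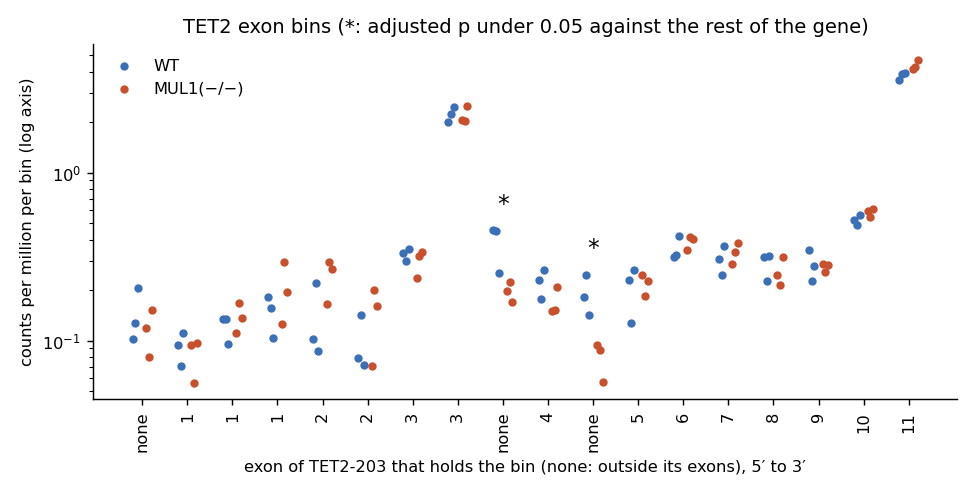
CPM in the 18 tested bins of TET2 in 5′ to 3′ order, on a log axis, named by the exon of TET2-203 that holds them, with WT in blue and MUL1(−/−) in red. The 2 bins with an asterisk, both outside the exons of TET2-203, are lower in all 3 MUL1(−/−) libraries, and the last exon is not.

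DNMT1 and UHRF1 are known as genes of dividing cells. RefSeq promoter windows (GRCh38.p14, 250 bases before to 50 after each annotated start; 20 windows for 9 members) were searched on both strands for 4 words of the E2F type, TTTGGCGC, TTTCGCGC, TTTCCCGC and TTTGCCGC, and for no other motif. A word occurred in 3.31% of 35116 promoters. Among the members it occurred once in DNMT1 and in 2 of the 3 UHRF1 windows, and these letters were not in the windows of the other 7. Not every annotated start had a window. The only DNMT3B window (chr20:32779602-32779901) lay at the start of DNMT3B-201. The start of the principal transcript DNMT3B-202, at 32762385, was not searched, so the absence of a word says nothing of that promoter. All 4 words hold a CG. The DNMT1 window held 30 CpG and the UHRF1 windows 36, 40 and 46, against a median of 14 over all promoters (upper quartile 28). A DNMT3A window with 46 and a TET3 window with 45 held no word. The share with a word among promoters of like CpG content was not counted. The matches are printed because these 2 genes were the members called higher. Each line gives 30 bases on the gene's strand with the word in capitals.
DNMT1, chr19:10194937-10194966, minus strand: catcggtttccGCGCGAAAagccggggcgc
UHRF1, chr19:4909476-4909505, plus strand: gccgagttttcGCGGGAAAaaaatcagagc
UHRF1, chr19:4909973-4910002, plus strand: cccgagcccgaTTTCGCGCgccctgagttc
A match is a description of sequence and not a measure of binding. Beside it, of 18 S phase genes 3 were called higher and 5 lower, from 0.29 (FEN1) to -0.81 (CDT1). Of 12 genes of G2 and M phase 3 were called higher and 3 lower, from 0.52 (AURKB) to -0.60 (CDK1). That is 44.4% and 50% called, against 37.5% of all genes (18.8% higher, 18.7% lower). The S phase genes summed to 3891 to 4142 CPM in WT and 3549 to 3607 CPM in MUL1(−/−). Their median log2 fold change was -0.09, and 10 of the 18 were not called. MCM7 had the largest difference in CPM, with means of 1124 ± 40.4 in WT and 840 ± 30.8 in MUL1(−/−) (SD, n = 3). Its neighbours on chromosome 7 had a median of -0.31. Growth rate was not measured in these files, and its part in the levels of DNMT1 and UHRF1 was not tested.

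Other genes of the pathway were counted by role, from lists drawn up by name. Over 6 lists of 48 genes, 47 were tested and 24 were called, 12 higher and 12 lower; 1 was also past the fold threshold. That is 51.1% of them, against 37.5% of all genes (18.8% higher, 18.7% lower). By list the share ran from 33.3% to 75%, on 6 to 11 tested genes each. Their median log2 fold change was 0.04 over the 6 lists together, against -0.01 over all genes. The lists were chosen with earlier results of these data known, and the shares were not matched for expression level. The difference between the shares is therefore not read as a result. With library totals in place of TMM factors the calls were 18 higher and 10 lower.

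Of 8 partners of maintenance, 3 were called higher and 3 lower. CHAF1A, the large subunit of the chromatin assembly factor that works at the replication fork, rose from 122 ± 4.80 to 205 ± 10.9 CPM (SD, n = 3; log2 fold change 0.75, adjusted p = 9e-07, edgeR). LIG1, the ligase whose methylated tail UHRF1 binds, rose by 0.61 (adjusted p = 7.78e-05, edgeR), and USP7, the deubiquitinase that stabilises DNMT1 and UHRF1, by 0.26 (adjusted p = 0.00673, edgeR). CDCA7L had the lowest value of the list, -0.44 (adjusted p = 0.00109, edgeR). HELLS, the remodeller needed for methylation of compact chromatin, fell by 0.43 on the log2 scale, and CDCA7, its partner, by 0.25. PCNA, the sliding clamp that also binds DNMT1, was not called. CHAF1A and LIG1 lie on chromosome 19 among neighbours with medians of 0.62 and 0.59, and HELLS on chromosome 10 among neighbours at -0.39.

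Of 7 other readers of methylated CpG, 4 were called higher and 0 lower by edgeR. ZBTB4, a zinc finger reader, rose from 15.4 ± 0.487 to 25.2 ± 1.37 CPM (SD, n = 3, log2 fold change 0.71, adjusted p = 8.62e-06, edgeR). It lies on chromosome 17 among neighbours with a median of 0.42. MBD4, a reader with glycosylase activity, had the lowest value, -0.07, and was not called. Without WT replicate 2 only 2 of the 7 were called, and with library totals in place of TMM factors 6 were, all higher. Of 8 tested factors that direct or limit new methylation, 2 were called higher and 1 lower. TRIM28, the corepressor of KRAB zinc finger proteins, rose from 752 ± 47.2 to 1003 ± 58.2 CPM (SD, n = 3), and its neighbours on chromosome 19 had a median of 0.48. NSD1, which writes the histone mark that DNMT3A reads, rose by 0.26. ZFP57, an imprint-protecting zinc finger protein at 4 to 29 counts per library, had the highest value, 1.31, and was not called. SETDB1, a histone H3 lysine 9 methyltransferase, had the lowest, -0.24 (adjusted p = 0.0202, edgeR), among neighbours at 0.08.

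On the side of removal, 2 of 11 genes of excision and repair were called higher and 4 lower. GADD45G, a stress-induced protein linked to active demethylation, was the gene past both thresholds: it was measured at 5.69, 5.58 and 4.86 CPM in WT and 1.71, 1.37 and 1.5 in MUL1(−/−), a log2 fold change of -1.82 ± 0.13 (SE), with an adjusted p of 9.39e-08 (edgeR). Its neighbours on chromosome 9 had a median of 0.07, so its fall was as large within its surroundings. GADD45B, a paralog, had the highest value, 0.91 (adjusted p = 1.42e-06, edgeR), on chromosome 19 among neighbours at 0.51. TDG, the glycosylase that removes oxidised methylcytosine, was not called, with means (SD, n = 3) of 107 ± 12.3 CPM in WT and 107 ± 8.75 CPM in MUL1(−/−). Of 6 genes that regulate TET proteins or supply their cofactor, 2 were called, both lower. The count was 1 without WT replicate 1, WT replicate 2 or MUL1(−/−) replicate 3, and 1 gene was called higher with library totals and without MUL1(−/−) replicate 1. CXXC5, a CpG-binding partner of TET2, fell from 30.5 ± 2.89 to 15.7 ± 2.01 CPM (SD, n = 3; log2 fold change -0.96, adjusted p = 4.31e-06, edgeR), with neighbours at -0.16, and CXXC4, its paralog, fell by 0.44. Of this list OGT, which modifies TET proteins with a sugar, had the highest value, 0.14, and was not called. In the supply of methyl groups 1 of 7 genes was called higher and 2 lower. AHCY, which clears the methyltransferase inhibitor S-adenosylhomocysteine, had the lowest value and fell from 425 ± 57.9 to 260 ± 4.37 CPM (SD, n = 3; log2 fold change -0.71, adjusted p = 1.35e-05, edgeR), on chromosome 20 among neighbours at -0.41. MAT2A, which makes S-adenosylmethionine, had the highest value, 0.38, set by 253 CPM in MUL1(−/−) replicate 3 against 136 to 151 in the other libraries, and was not called.

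**Figure D5:**
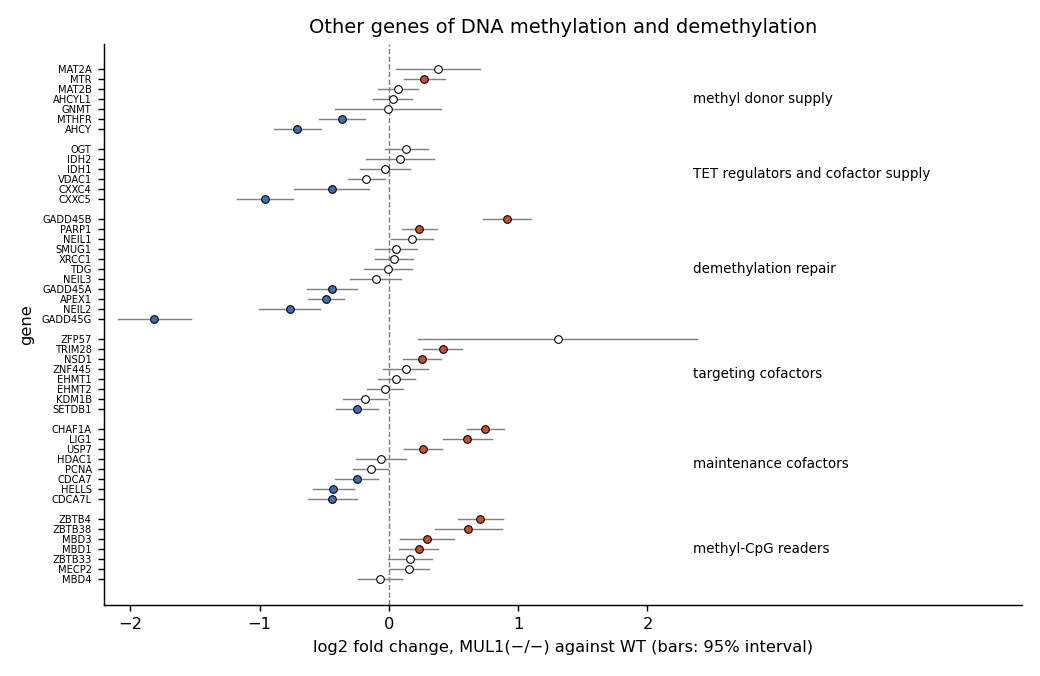
Log2 fold changes with 95% intervals of 47 tested genes in 6 lists of the pathway; filled circles had an adjusted p under 0.05 (red higher, blue lower in MUL1(−/−)). Calls fall on both sides of 0 in 4 of the lists, and GADD45G lies lowest at -1.82.

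Of 24 germline genes listed as held silent by promoter methylation in somatic cells, 8 had enough counts to be tested, and the 24 together summed to 11.1 to 12.4 CPM in WT and 12.5 to 13.4 CPM in MUL1(−/−). Most of that sum came from a pair of genes named here after their values were seen. SYCP3, of the synaptonemal complex, held 8.03 ± 0.424 CPM in WT and 7.02 ± 0.782 CPM in MUL1(−/−) and was not called. TEX14, needed for germ cell bridges, had means of 2.79 ± 0.453 and 3.83 ± 0.533 CPM (SD, n = 3; log2 fold change 0.46) and was called higher (adjusted p = 0.0233, edgeR). The genes past both thresholds were MAGEA3, MAGEC1 and MAGEC2, cancer-testis genes of the X chromosome. MAGEA3 gave 1, 0 and 0 counts in WT and 35, 16 and 22 in MUL1(−/−). Over the genotypes this is 1 against 73 counts, a ratio of 80.5 after scaling to library totals. Its 95% counting interval (binomial), 14 to 3222, takes each count as independent. A read is counted in every bin it touches, and libraries differed by more than sampling noise, so that interval is too narrow. MAGEA3 is nearly identical to MAGEA6 (0, 1 and 0 counts in WT, 19, 27 and 9 in MUL1(−/−), not tested), so reads may be divided between them. MAGEC1 gave 1, 2 and 2 counts in WT and 14, 28 and 15 in MUL1(−/−), and MAGEC2 21, 30 and 25 counts in WT and 53, 63 and 56 in MUL1(−/−) (log2 fold change 1.25, adjusted p = 0.00107, edgeR). MAGEA3 and MAGEC1 passed the count filter only through the MUL1(−/−) libraries, where they are high, and no count over the list is read as a result. RHOXF2, a homeobox gene of this list, had the lowest value, -0.43, and was not called. MAGEA4, also of the X chromosome, gave 0, 7 and 1 counts in WT and 1, 0 and 0 in MUL1(−/−) and was not tested. Of the 24 genes, 4 (MAGEA1, CTAG1B, GAGE1 and PAGE1) had at most 3 counts in every library.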

How the data were processed

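RNA of WT and MUL1(−/−) HEK293 cells was extracted with an RNeasy kit and sequenced from SMARTER mRNA-Seq libraries. Per the labels, the submitters' processing notes name Trimmomatic 0.36, STAR 2.5.2b and GRCh38; the counting program and annotation release are not given in the sources used here. The authors deposited raw counts per exon bin, without normalization, 597973 bins under 54848 gene identifiers in each of the 6 tables.

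Bins were summed per gene, and bins under joined identifiers were assigned by same-strand GENCODE 29 exons (15942 that matched no gene or several were left out). For DNMT1, which shares its identifier, only bins matching it alone were used. A read is counted in each bin it touches, so the sums exceed the reads and are less precise than their size implies. Whether strand was used in counting is not given. Gene names came from a name table or GENCODE 29 (56679 of 57123 genes).

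Gene counts were tested with edgeR 4.0.16 in R 4.3.3 (TMM, filterByExpr, quasi-likelihood test, Benjamini-Hochberg over 25125 genes), called at an adjusted p under 0.05, and with an absolute log2 fold change above 1 as a second rule, the thresholds of the study's methods, which used DESeq2. The plan had assumed counts per gene where the tables held bins. Bin usage was tested with diffSpliceDGE. Alternatives were DESeq2 1.42.0, limma 3.58.1 voom, other scalings and filters, the most counted bin, bins free of overlap on either strand, a replicate block, and each library left out. On simulated counts for this comparison (25125 genes, 200 of them changed by a log2 fold of 2), edgeR recovered 200 with 8 false calls. Over 308036 simulated bins diffSpliceDGE recovered 198 of 200, with 515 false calls. Of these 515, 38 lay in genes without a changed bin and the others inside genes that held one. Exact permutation tests and binomial counting intervals used scipy 1.17.1. A floor of 3 counts and the counting intervals cover counting error only, and the intervals take each count as independent.

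Libraries of a genotype differed by more than sampling noise (chi-square per degree of freedom 2.95 to 10.8 for the most counted bins). The members and lists were chosen with earlier results of these data known. All 10 members were named with every value. Of each list, the genes past both thresholds and the highest and lowest fold were named. Other genes were added after their values were seen. These were HELLS, CDCA7, LIG1, USP7, PCNA, NSD1, TRIM28, TDG, CXXC4, MCM7, CD3E and INS. Of the germline list they were SYCP3, TEX14, MAGEA6, MAGEA4, MAGEA1, CTAG1B, GAGE1 and PAGE1.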

Additional observations from a re-analysis of the deposited data

How the results depend on the processing

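The count of called members stayed at 4 or 5 of 9 or 10 under every alternative run, with DNMT1 and UHRF1 higher and DNMT3B and TET1 lower each time; the fifth, TET3, was called with library totals (adjusted p = 0.0127), with at least 1 CPM in at least 3 samples (0.0316) and without MUL1(−/−) replicate 2 (0.0476), and its adjusted p reached 0.138 elsewhere. Taking the median of the 20 nearest tested genes off each fitted log2 fold change turned DNMT1 to -0.092 and UHRF1 to -0.21, and moved DNMT3B to -0.15, TET1 to -0.38 and TET2 to 0.19. For the called genes of the 6 pathway lists the same step, chosen after seeing the data, moved the median absolute log2 fold change from 0.44 to 0.29. Called pathway genes ranged from 20 to 28 over all alternatives. Leaving out each library gave 0 to 3 called member bins. The replicate numbers share only a number (correlations of same-numbered deviations from -0.08 to 0.16 over 15858 genes): with the replicate block 4 members, 25 pathway genes and 2 member bins were called. DNMT3L had too few counts for any statement at this depth, and a change in the share of the DNMT3B cassette exons could not reach p under 0.1 with 3 against 3.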
